A study of Caenorhabditis elegans with 12 samples.

Results

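The 5 *Caenorhabditis elegans* C-type lectin genes *clec-80*, *clec-222*, *clec-223*, *clec-175* and *clec-9* lay within 2000 bp of a KLF-1-YFP ChIP-seq region found both in WT animals and in mutants of *isp-1* and *ctb-1*. They were selected on the presence of such peaks in the deposited lists, among 264 *clec* genes and 46926 annotated genes, of which 0.648% were near a region of both strains. Presence in both strains is therefore a description here, without a test. Presence in a strain meant a peak in at least 2 of its 3 ChIP libraries, with peaks of all libraries merged where they shared 1 bp or more.

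KLF-1, a zinc-finger transcription factor of the Krüppel-like family, was expressed as a fusion with YFP, a yellow fluorescent protein, and was pulled down from chromatin with GFP-Trap beads, which bind GFP and its variants. The WT strain was N2 carrying Is[pvha-6::klf-1-yfp], and the mutant strain was isp-1(qm150);ctb-1(qm189), with mutations in subunits of respiratory complex III, carrying the same transgene. Both were taken as whole animals at the first day of adulthood and grown on HT115 bacteria with the empty L4440 vector. Each strain gave 3 ChIP libraries and 3 matched inputs, which makes 12 sequenced libraries. The *vha-6* promoter drives expression in the intestine, so the tagged protein was made in addition to the animals' own KLF-1 and chiefly in that tissue. Both strains also carried the co-injected plasmids, a *rab-3* promoter fused to mCherry and the dominant *rol-6* marker, and the integrated line was outcrossed and then crossed into the mutant. A ChIP from animals without the tag was not analysed here, and the labels do not tell whether replicates were grown apart, so the p-values measure only the spread between these libraries. The study's reporting summary gives fewer uniquely mapped reads for each WT ChIP library than for any from the mutant, so strain and depth cannot be told apart.

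C-type lectins carry a fold that in many animal proteins binds carbohydrates, often with the help of calcium. In *C. elegans* they form a very large family, and a number of its members are known to change their expression in the intestine when animals meet pathogenic bacteria. Individual roles are known for few of them, and none is stated here for the 5 genes. All 5 were annotated as protein-coding in the RefSeq gene table of assembly WBcel235, whose coordinates are used throughout. *clec-80* (Y54G2A.39) spans 2823746 to 2828069 and *clec-175* (R08C7.6) 4422329 to 4426566 of chromosome IV. *clec-222* (C03E10.6) spans 11271351 to 11272467, *clec-223* (C03E10.5) 11273148 to 11278161 and *clec-9* (Y70C5C.2) 16705044 to 16706649 of chromosome V.

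The 5 genes shared 6 merged regions, which held 42 deposited peaks, 22 from WT and 20 from *isp-1;ctb-1* libraries. *clec-222* and *clec-223*, neighbours on chromosome V, were near the same region, so that the genes are not independent of each other. *clec-80* had a single region, and *clec-175* and *clec-9* had a pair of regions each, called a and b here. Regions of *clec-80* and of the *clec-222*/*clec-223* pair had a peak in all 6 libraries. At *clec-175* and *clec-9*, *isp-1;ctb-1* replicate 1 had no peak in any region, while its list of 620 peaks was the longest of the mutant lists (386 and 565 in the others, and 303 to 665 in WT). Over all protein-coding genes, 0.791% (158 of 19983) lay near a region of both strains and 0.36% (72 of the same 19983) near a region with a peak in all 6 libraries. Nothing is read from the 3 of 5 lectin genes near such a region, since the choice of genes used these peaks and a pair of them shares a region.

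**Figure D1:**
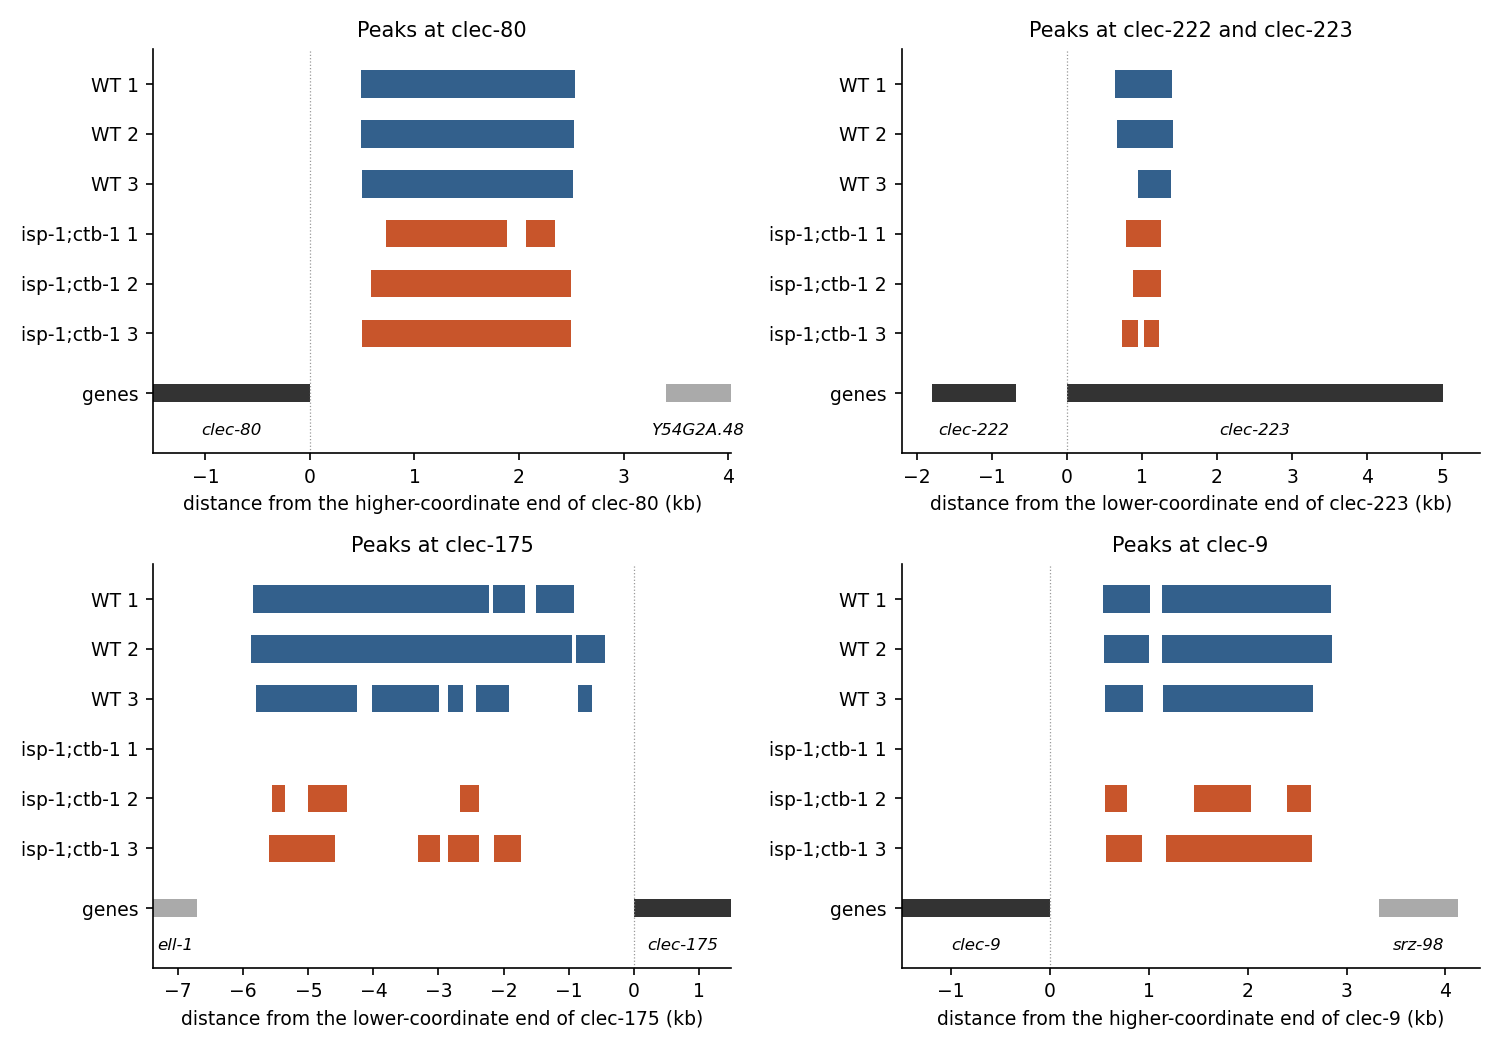
Peaks of each ChIP library at the 5 C-type lectin genes, drawn to scale as distance in kb from 1 end of a lectin gene. Blue bars are WT peaks, orange bars *isp-1;ctb-1* peaks, black bars the lectin genes and grey bars neighbouring genes. The *clec-80* and *clec-222*/*clec-223* regions carry bars in all 6 libraries, whereas *isp-1;ctb-1* replicate 1 is empty at *clec-175* and *clec-9*.

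At *clec-80* the region covered IV 2828556 to 2830601, 2046 bp, and began 487 bp past the higher-coordinate end of the gene. Whether this end is the start or the end of transcription is not given by the gene table. The other gene within 2000 bp was the protein-coding Y54G2A.48, 876 bp away on the far side. The deposited lists assigned the peaks to neither of them but to *pudl-1*, 2276 bp from the region, and for 1 peak also to *pudl-2*, 4215 bp away. Peak widths were 2046, 2039 and 2022 bp in WT replicates 1 to 3. In *isp-1;ctb-1* they were 1426 bp for replicate 1, where the region was split into peaks of 1157 and 269 bp, 1910 bp for replicate 2 and 1998 bp for replicate 3. WT peaks were thus nearly of equal width, and each was wider than every mutant peak. The bases covered in every one of the 6 libraries came to 1426 bp (69.7% of the region).

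The authors' fold enrichment, the ratio of ChIP over input signal at a peak, was 2.06, 2.00 and 1.91 at *clec-80* in WT and 1.33, 1.47 and 1.65 in the mutant. It is comparable only within a list, and was therefore read as a percentile of its own list, where a higher percentile means a larger fold than more of that library's peaks. The *clec-80* peak stood at percentiles 81.8, 74.7 and 91.4 in WT and at 7.42, 42.2 and 38.2 in the mutant, with no overlap. The p-values deposited with the peaks were 0.000157, 0.000302 and 0.000737 in WT. In *isp-1;ctb-1* they were 0.171 and 0.233 for the pair of peaks of replicate 1, 0.0519 for replicate 2 and 0.0106 for replicate 3. All 3 WT peaks passed the threshold that the study states, a fold over 1.5 with a p under 0.05. In the mutant the peak of replicate 3 was the only one to do so at any of the 5 genes. The share of each whole list that passes was not counted, so this contrast is not read as particular to the lectin genes.

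The region shared by *clec-222* and *clec-223* covered V 11273788 to 11274561, 774 bp. It lay within the span of *clec-223*, which the lists give on the plus strand, 640 bp from its 5′ end (whether in an exon or an intron was not analysed here), and 1321 bp beyond the nearer end of *clec-222*. No other gene was within 2000 bp, and the lists assigned the peak to *clec-223* and never to *clec-222*. Widths were 765, 749 and 440 bp in WT and 471, 384 and 422 bp in the mutant, the last as a pair of peaks. WT replicate 3 was narrower than *isp-1;ctb-1* replicate 1, so the groups overlapped. Peaks of all 6 libraries had 210 bp (27.1%) of the region in common, a smaller part than at *clec-80*.

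Fold enrichment at the shared *clec-222*/*clec-223* region was 2.10, 1.94 and 1.78 in WT. In *isp-1;ctb-1* it was 1.46 and 1.60 in replicates 1 and 2, and 1.49 for the higher of the peaks in replicate 3. Within the lists these peaks stood at percentiles 87.2, 63.8 and 72.6 in WT and 19.4, 58.0 and 12.2 in the mutant, so that the lowest WT value was above the highest mutant value by a small margin. Deposited p-values were 0.00869, 0.0164 and 0.0491 in WT. They ran from 0.0766 to 0.211 in *isp-1;ctb-1*, where no peak passed the stated threshold.

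**Figure D2:**
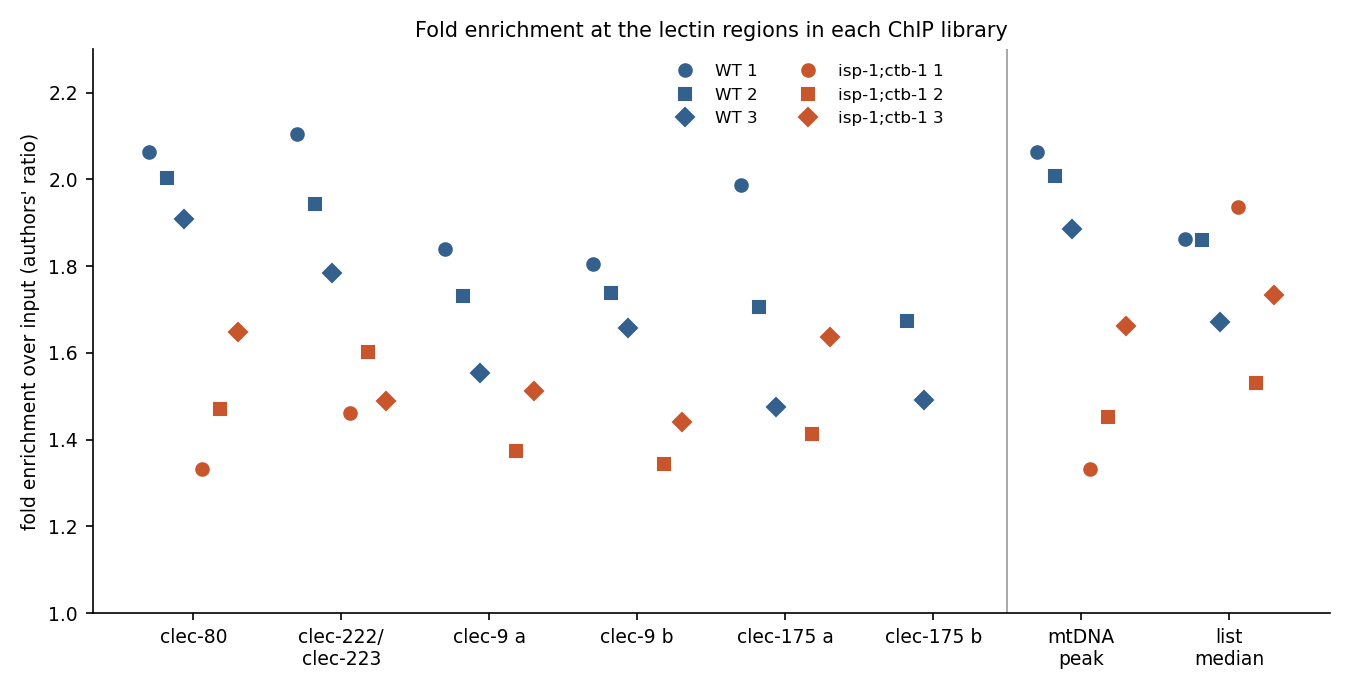
Deposited fold enrichment over input (ratio, linear axis starting at 1, where ChIP equals input) at the 6 lectin regions, 1 point per ChIP library and the highest peak where a library has several. The mitochondrial DNA peak and the median of each list are at the right. At *clec-80* the points lie from 1.33 to 2.06 in the same order as at the mitochondrial DNA peak, and *isp-1;ctb-1* replicate 1 has no point at *clec-9* or *clec-175*.

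*clec-9*, on the minus strand, had both its regions before its 5′ end. Region a covered V 16707187 to 16707662 (476 bp), 538 bp from the gene. Its peaks were 476, 454 and 383 bp wide in WT, and in the mutant they ran from 16707210 to 16707431 in replicate 2 and over 361 bp in replicate 3. Every WT peak at region a was therefore wider than both mutant peaks, and *isp-1;ctb-1* replicate 1 had none. Fold enrichment was 1.84, 1.73 and 1.55 in WT and 1.37 and 1.51 in the 2 mutant libraries. These were not high values for their lists, at percentiles 45.9, 26.9 and 29.4 in WT and 12.2 and 14.9 in the mutant.

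Region b of *clec-9* was the larger, covering V 16707778 to 16709496 (1719 bp), 1129 bp from the gene and separate from region a in every library that had both. Widths were 1711, 1711 and 1516 bp in WT. In *isp-1;ctb-1* replicate 2 the region was broken into peaks of 572 and 246 bp, 818 bp in all, and in replicate 3 it was 1472 bp wide. Fold enrichment was 1.81, 1.74 and 1.66 in WT, and 1.34 and 1.44 in *isp-1;ctb-1* replicates 2 and 3. Percentiles were 39.0, 28.1 and 46.2 in WT and 7.25 and 7.08 in the mutant, the lowest of any lectin region. Deposited p-values in WT were 0.00567, 0.0105 and 0.0187 at region b and 0.00559, 0.0132 and 0.0583 at region a, so that 5 of these 6 peaks passed the stated threshold. Pseudogenes lay on the far side of region b, *srz-98*, of a family of chemoreceptor genes, at 481 bp and Y70C5C.8 at 1696 bp.

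*clec-175*, on the plus strand, had the widest region and the least even one. Region a covered IV 4416445 to 4421417, 4973 bp, and ended 912 bp before the gene. A single WT peak of 4936 bp in replicate 2 spanned nearly all of it. In WT replicates 1 and 3 the region was made up of 3 and 4 peaks that summed to 4721 and 3322 bp. In *isp-1;ctb-1* replicates 2 and 3 it held 3 and 4 shorter peaks that summed to 1087 and 2224 bp. The bases covered in all 5 of these libraries came to 696 bp, 14.0% of the region, in 4 separate stretches. In the mutant, *clec-175* counted as near a region because WT peaks join its pieces, and it still did so without WT replicate 2, the library of the widest peak. When each library had to have a peak of its own within 2000 bp of the gene, all 3 WT libraries did, but in the mutant only replicate 3 did, at 1740 bp, since the closest peak of replicate 2 was 2384 bp away.

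The highest fold enrichment at *clec-175* region a was 1.99, 1.71 and 1.48 in WT and 1.41 and 1.64 in *isp-1;ctb-1* replicates 2 and 3. Here WT replicate 3 was below mutant replicate 3, so the strains overlapped, as they did in the percentiles, 68.5, 23.5 and 13.5 in WT and 20.7 and 36.5 in the mutant. The small region b (IV 4421436 to 4421882, 447 bp), 447 bp before *clec-175*, was found in WT replicates 2 and 3, with widths of 447 and 213 bp and folds of 1.67 and 1.49, and in no mutant library. Neither of its peaks passed the stated threshold, with p-values of 0.119 and 0.248. On its other side region a was 824 bp from *ell-1* and 926 bp from the non-coding RNA gene Y24D9A.13. The lists gave *clec-175* as the gene of most of its peaks, up to 4412 bp from the gene.

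The strains were compared for the 2 regions with a peak in all 6 libraries, on width and on percentile, which did not choose the genes. With 3 libraries against 3, a two-sided exact permutation test cannot give a p under 0.1. At *clec-80* the mean width was 2036 ± 12.3 bp in WT and 1778 ± 308 bp in *isp-1;ctb-1* (SD, n = 3 each, exact permutation p = 0.1, adjusted p = 0.139 over 86 regions). Leaving out *isp-1;ctb-1* replicate 1, the library with the split peak, brought the difference of 258 bp down to 81.7 bp. At *clec-222*/*clec-223* the mean width was 651 ± 183 bp in WT and 426 ± 43.6 bp in the mutant (SD, n = 3 each, exact permutation p = 0.2, adjusted p = 0.226). The mean percentile was 82.7 ± 8.37 against 29.3 ± 19.0 at *clec-80* (SD, n = 3 each, exact permutation p = 0.1, adjusted p = 0.125). It was 74.5 ± 11.8 against 29.9 ± 24.7 at *clec-222*/*clec-223* (SD, n = 3 each, exact permutation p = 0.1, adjusted p = 0.125).

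None of these 4 comparisons passed a threshold of 0.05, which this design cannot reach. The direction was also the usual one. Of the 86 regions with a peak in all 6 libraries, 72.1% (62) were wider in every WT library than in every *isp-1;ctb-1* library and 0 the other way. For the percentile the share was 80.2% (69), again with 0 the other way. *clec-80* was among the former and both lectin regions among the latter, so the lectin regions went the way that most regions of this kind went in the measures where their strains did not overlap.

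The peak over the mitochondrial DNA, which is present in many copies in each cell, gives another yardstick within each library. Its fold was 2.06, 2.01 and 1.89 in WT and 1.33, 1.45 and 1.66 in the mutant. The *clec-80* fold divided by it was 1.00, 0.997 and 1.01 in WT and 0.999, 1.01 and 0.992 in the mutant. *clec-80* thus had nearly the fold of the mitochondrial DNA in every library, with means of 1.00 ± 0.00813 and 1.00 ± 0.0103 (SD, n = 3 each, exact permutation p = 0.8, adjusted p = 0.86). A fold within 5% of the mitochondrial DNA peak in all 6 libraries was seen at 18.6% (16) of the 86 regions. These 16 include *clec-80* and, by construction, the mitochondrial DNA region itself. Whether the *clec-80* signal depends on KLF-1 was not tested.

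At the *clec-222*/*clec-223* region the ratio to the mitochondrial DNA peak varied more, at 1.02, 0.968 and 0.946 in WT and 1.10, 1.10 and 0.896 in the mutant. Its means were 0.978 ± 0.0382 and 1.03 ± 0.118 (SD, n = 3 each), so on this scale WT minus *isp-1;ctb-1* was -0.0539, within the spread of the libraries (exact permutation p = 0.4, adjusted p = 0.529). The direction of the strain difference at this region thus depends on the yardstick. At *clec-9* the ratio was below 1 in every library with a peak, from 0.825 to 0.891 in WT and from 0.909 to 0.945 in the mutant at region a, and from 0.865 to 0.879 and 0.867 to 0.925 at region b. *clec-175* region a was likewise below the mitochondrial DNA peak, from 0.782 to 0.963 in WT and at 0.973 and 0.985 in the mutant. Across the 86 regions, every mutant library was above every WT library on this scale at 43% (37), and 0 were the other way.

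**Figure D3:**
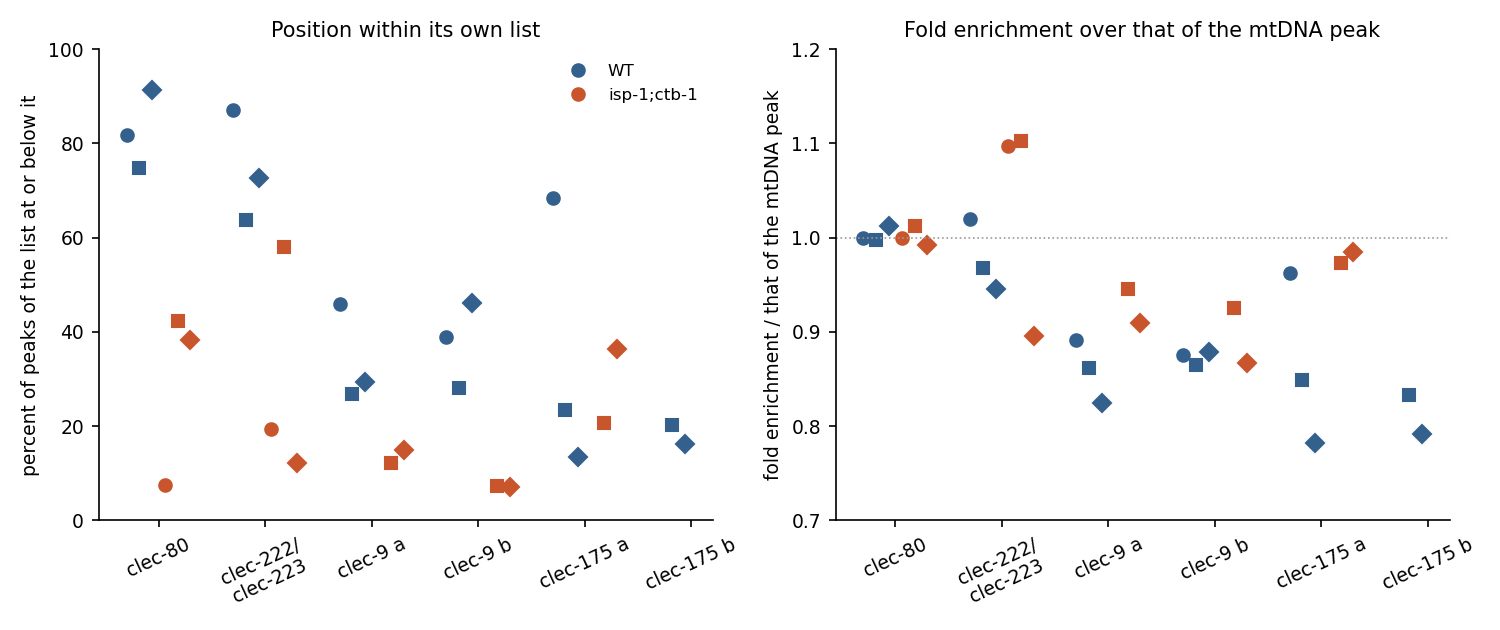
Fold enrichment of the lectin regions in each ChIP library (blue WT, orange *isp-1;ctb-1*, with circles, squares and diamonds for replicates 1, 2 and 3), left as the percentile of its own list and right divided by the fold of the mitochondrial DNA peak of the same library. On the left the WT points at *clec-80* lie from 74.7 to 91.4 and the mutant points from 7.42 to 42.2. On the right all 6 *clec-80* points lie between 0.992 and 1.01.

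To find which other regions had the same pattern, regions with a peak in the same libraries were ordered by the mean absolute difference of their percentiles from those of the lectin region. Among 84 candidates over 6 libraries, *clec-80* was closest to a region at I 15060282 to 15071363 that covers ribosomal RNA genes, with the nearest protein-coding gene F31C3.6 at 1288 bp (difference of 2.24 percentile points). Next came the mitochondrial DNA region (2.54) and a region at *rab-3* (II 5724696 to 5725987, 2.72), the gene whose promoter is also on the co-injected plasmid. Ribosomal RNA genes, like mitochondrial DNA, are present in many copies, but whether copy number bears on the *clec-80* pattern was not tested. The *clec-222*/*clec-223* region was closest to a region by H27A22.1 on chromosome V, less closely than *clec-80* to its own (6.63), and then to 2 regions whose nearest gene was *oac-58* on chromosome IV (7.86 and 10.3).

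Among 60 candidates with a peak in the same 5 libraries, *clec-9* region a was closest to regions at *tmed-13* (5.15), by Y57E12B.4 (5.40) and by *cpn-3* (6.08). Region b was closest to those of *cpn-3* (3.40), *tmed-13* (4.84) and Y106G6E.8 (8.85), so that both regions of *clec-9* shared 2 of their 3 nearest. For *clec-175* region a the nearest were C36E8.6 (10.9), Y57E12B.4 (15.0) and Y47C4A.1 (15.6), all farther than any of those of *clec-9*. Region b of *clec-175* had just 7 candidates over 2 libraries, ZC247.1 (7.05), *catp-1* (10.2) and *klf-1* itself (16.0) being the nearest.

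The authors' table of the strain comparison lists 287 regions with a mean for condition 1 and for condition 2. The columns do not name the strains, but condition 1 had the higher mean in 35 of 40 regions without a mutant peak, and condition 2 in all 63 regions without a WT peak. The means carry no value per library, so no error can be given, and no source used here gives their normalization. Of the 6 lectin regions 5 overlapped a region of the table (*clec-175* region b did not), and *clec-223* was the only one of the 5 genes that the table names. Condition 1 was higher in all 5, against 50.9% (146) of the 287 regions. These 287 include the 63 regions without a WT peak, all with condition 2 higher, and the 40 without a mutant peak. The 5 lectin regions had peaks in both strains, so the 287 are not a matched base for them.

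At *clec-80* the authors' means were 29931 and 20848 for conditions 1 and 2. Their ratio of 1.44 was the highest in the table, whose median was 1.00 and whose next highest ratio was 1.24. The regions most like *clec-80* by percentile had lower ratios. These were 1.07 for the ribosomal RNA region, 1.11 for the mitochondrial DNA region and 0.704 for the region at *rab-3*. For the *clec-222*/*clec-223* region the means were 1039 and 948, with a ratio of 1.10. The other 3 regions had nearly equal means. These were 8072 and 7825 at *clec-175* region a (ratio 1.03), 3346 and 3317 at *clec-9* region a (1.01), and 15464 and 15191 at *clec-9* region b (1.02). Differences larger than that of *clec-80* were present in the other direction, where condition 2 was higher by more than 1.44 times in 48 regions and by up to 2.53 times. *clec-80* was thus the extreme of the regions with a higher condition 1, and the *clec-9* and *clec-175* regions were near the middle of the ratios, with no peak there in 1 mutant library.

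Because these means grow with the width of a region, they were also divided by it. *clec-80* then had 14.6 and 10.2 per bp in conditions 1 and 2, at percentiles 97.9 and 95.1 of the table. *clec-9* was also high, with 7.03 and 6.97 per bp at region a and 8.996 and 8.84 at region b, all above the upper quartiles of 4.14 and 4.01. In contrast, *clec-222*/*clec-223*, at 1.34 and 1.22, and *clec-175* region a, at 1.64 and 1.59, were just under the medians of 1.69 and 1.62. The order by signal per bp thus differed from the order by fold enrichment over input, where *clec-222*/*clec-223* was above both *clec-9* regions in every library that had peaks at both, except at region a in *isp-1;ctb-1* replicate 3.

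**Figure D4:**
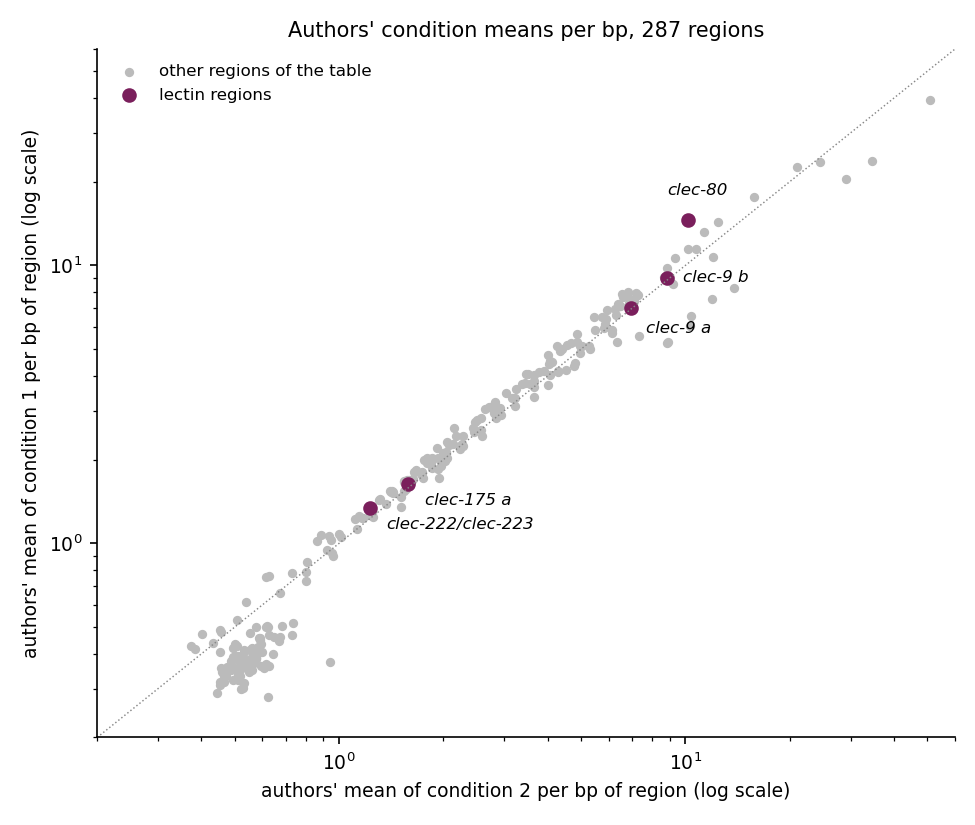
Authors' means per bp for condition 1 (y axis) and condition 2 (x axis) on log axes for the 287 regions of their table, with the lectin regions marked. *clec-80*, at 14.6 and 10.2, is the lectin point farthest above the line of equal values, and the other lectin points lie close to it.

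The 5 genes were a small part of their family. Of the 264 *clec* genes, 239 protein-coding and 25 pseudogenes, 12 (4.55%) lay within 2000 bp of a deposited peak of any library, and 252 did not. For comparison, 6.09% (1216) of all protein-coding genes lay near such a peak. That base leaves out pseudogenes, which the 264 include, so the shares are not strictly alike. Of the 12, 3 had peaks in WT libraries only, 1 in an *isp-1;ctb-1* library only and 8 in both. The 8 include the 5 genes, which were chosen for peaks in both strains. Of the 3, *clec-121* and *clec-122* were near the same peak. This split was not made over all genes, so nothing is read from it. Family members were most numerous on chromosome V (96) and IV (58), the chromosomes of the 5 genes, and none of those on I (38), II (51), III (18) or X (3) lay near a region of both strains.

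Just outside the rule were *clec-135* and *clec-196*, each with a peak in all 3 libraries of 1 strain and in 1 of the other. *clec-135* (II 4257049 to 4258783) had WT folds of 2.04, 1.93 and 1.40 at a peak 1255 bp away, and a fold of 1.46 in *isp-1;ctb-1* replicate 3. *clec-196* (IV 17276956 to 17277748) went the other way, with mutant folds of 2.42, 2.25 and 2.36 at a peak 478 bp away and 2.06 in WT replicate 1. Its mutant folds were 1.82, 1.55 and 1.42 times that of the mitochondrial DNA peak, above every mutant value at the 5 chosen genes. The authors' means gave *clec-135* a condition 1 to condition 2 ratio of 1.08 and *clec-196* one of 0.720. *clec-50* had a peak within its span in WT replicate 2 (fold 1.96) and in *isp-1;ctb-1* replicate 3 (1.82), and the lists assigned the same peak to *clec-49* as well. *clec-122* had a peak within its span in all 3 WT libraries (1.81, 1.57 and 1.80) and in none of the mutant. In WT replicates 1 and 2 its neighbour *clec-121* was within 2000 bp of that peak.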

How the data were processed

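The authors ran QuickNGS, with BWA for alignment to Ensembl release 93, FastQC 0.10.1 for quality and MACS2 2.0.10 for peaks, 1 list for each ChIP sample and its input. The deposited fold enrichment is a ratio over input, and the deposited p-value stands beside each peak with an assigned gene (1464 of 3116 peaks have none). No source used here says what that p-value tests. The authors' condition means were treated as a score without a known unit, and the fold and p-value columns of the same deposited table hold the authors' comparison and were not used.

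The 3116 peaks were merged into 1218 regions on 1 shared bp, and a region counted for a strain when 2 or more of its 3 libraries had a peak in it (406 in WT, 371 in *isp-1;ctb-1*, 184 in both). Every deposited peak was used, since the stated threshold leaves no lectin gene with both strains. Gene spans came from the RefSeq table of WBcel235 and a gene was near a region within 2000 bp. Width is summed where a library has several peaks in a region, and fold is that of the highest. Tests were two-sided exact permutations of the 6 libraries, adjusted by Benjamini-Hochberg over the 86 regions with a peak in all 6. Merging and the width test were tested on simulated data with 86 regions. There 9 of 9 regions planted with wider WT peaks had WT widths above all mutant widths. The planted WT peaks were unsplit and far wider than the mutant ones, so their recovery was certain and checks only the code. It says nothing of differences as small as those at the lectin regions. The other steps were not simulated.

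The members and gene lists were chosen with earlier results of these data known. Named genes were the members, genes near or assigned to their peaks, other *clec* genes with a peak in at least 2 libraries of a strain or assigned in at least 2 lists, and the 3 regions most like each lectin region. *clec-170*, *clec-182*, *clec-88*, *clec-219*, *clec-146* and the 4 *fbxa* genes are named outside this rule, after their values were seen. Alternatives varied the threshold, distance, number of libraries, overlap, width limit, measures of width and fold, and the replicate block. Read counts were not in the files used, so depth per peak is unknown and no counting interval is given. No genome sequence was used here. Python 3.11.15, numpy 2.4.6, pandas 2.3.3, scipy 1.17.1 and matplotlib 3.10.9 were used.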

Additional observations from a re-analysis of the deposited data

How the results depend on the processing

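How many of the 5 lectin genes lay near a region of both strains depended on the choice of peaks, and the family count moved with it because it was made of the same genes. Both counts fell to 0 at the stated threshold or with a fold over 2. They fell to 1 when the region had to overlap the gene and to 2 within 500 bp. Both were 3 with a peak required in all 3 libraries or with regions over 2000 bp left out. Protein-coding genes near a region of both strains fell from 158 to 72 when all 3 libraries of each strain had to have a peak. The other settings were not counted over all genes, so these falls are not read as particular to the lectin genes. With a peak in 1 of 3 libraries the family count was 8, from *clec-135*, *clec-196* and *clec-50*. Leaving out each library in turn gave 3 to 5 for both, with 3 without *isp-1;ctb-1* replicate 2 or 3, where *clec-175* and *clec-9* were lost. Chosen after seeing the data, another alternative counted a library only by its own peak within 2000 bp, in at least 2 of 3 libraries per strain. It left 4 genes (without *clec-175*). Also chosen after seeing the data, leaving out regions within 5% of the mitochondrial DNA fold left 4 (without *clec-80*). Within 5000 bp the family count was 6, with *clec-146*.

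At *clec-80* the width difference, WT minus *isp-1;ctb-1*, ran from 81.7 to 368 bp as each library was left out and the percentile difference from 42.4 to 59.8. At *clec-222*/*clec-223* they ran from 169 to 331 bp and from 35.8 to 58.7. One alternative reversed a direction, the fold over that of the mitochondrial DNA peak at *clec-222*/*clec-223* (-0.0539, exact permutation p = 0.4), and the cause was not tested. No p of any alternative was below 0.1, the smallest the design allows, so these tests say nothing of stability. Replicate numbers correlated between the strains at 0.32, 0.34 and -0.36 over the 86 regions and did not pair the libraries. The replicate block cannot change the mean differences (258 bp and 53.4 for *clec-80*, 226 bp and 44.6 for *clec-222*/*clec-223*), so it says nothing of their stability. It changed the test alone, with an exact paired permutation p = 0.25 for all, the smallest possible. The count of KLF elements in promoters was not run, because no promoter sequence was used here.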

Other observations

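Other gene lists of immune effectors had no member within 2000 bp of any deposited peak, where 6.09% (1216) of all protein-coding genes lay. This held for 0 of 16 lysozyme genes, 0 of 30 caenopore genes, 0 of 46 antimicrobial peptide genes of the *abf*, *cnc* and *fipr* families and 0 of 8 infection response genes. Of the *fbxa* genes, another large family and one that encodes F-box proteins, 4 (1.80%) lay near a region of both strains. The share was 1.89% (5 of 264) for C-type lectin genes, 0.648% for all 46926 annotated genes and 0.791% for protein-coding genes. Both families include genes that are not protein-coding. The 4 *fbxa* genes were *fbxa-28*, *fbxa-55*, *fbxa-75* and *fbxa-221*. Near any deposited peak lay 15 *fbxa* genes (6.76%) and 12 *clec* genes (4.55%). Genes in clusters can share a peak, as *clec-222* and *clec-223* do, so these counts are not of independent genes.

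In the deposited lists 10 *clec* genes were assigned a peak, 3 of them among the 5 described here. A further 3, *clec-88*, *clec-219* and *clec-49*, had no peak within 2000 bp of their span in the gene table used here. *clec-170* (WT replicate 2, fold 1.82) and *clec-182* (*isp-1;ctb-1* replicate 3, fold 2.01) had a peak in a single library.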
